A study of Homo sapiens with 8 samples.

Results

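The 172 human 5p arms numbered miR-6720-5p to miR-6895-5p were described in INA-6 cells treated with UNC1999 or with the control DMSO. They were chosen by name alone, as every human 5p feature with a number in that range, and make up 172 of the 2549 human miRNAs with probes. INA-6 cells are a line established from human MM that needs IL-6 to grow, and UNC1999 inhibits EZH2, the methyltransferase that acts on H3K27, and also its paralogue EZH1. Both groups were the same cell line grown with IL-6, and the UNC1999 group received 1 μM of the inhibitor for 5 days. The sample titles name DMSO as the control of the other group, while the treatment protocol in the labels names the inactive compound UNC2400, and the titles were followed here. Each group held 4 biological replicates on 1 single-colour array each, and all 8 arrays lay on 1 slide. Because a single cell line was used, the values describe these cultures only, and fewer cells with a miRNA cannot be told apart from less of it per cell.

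Many miRNAs of this number range were catalogued as mirtrons, which was not examined at the splice sites here. A mirtron is a short intron that, after splicing and debranching, folds into a hairpin that Dicer cuts without the earlier Drosha step, so that its 5p arm lies at the 5′ splice site end and its 3p arm at the 3′ splice site end. Mirtron 5p arms of mammals are known to be rich in G and the 3p arms rich in C. The genes that contain them are called hosts, and the bases 2 to 8 of a mature miRNA, the seed, largely set which mRNAs it pairs with.

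RefSeq (GRCh38.p14) gave a mature sequence for 146 of the 172 members, and for 127 of these a gene on the same strand that contains the miRNA gene, in 125 cases a protein-coding one. The hairpins were 56 to 164 bases long with a median of 67, which is as far as the annotation used here speaks to the size of the intron. The sequences below are those of members described one by one, with the seed in capitals, first the brightest members, then the largest rises, then the members that fell.
miR-6869-5p: gUGAGUAGuggcgcgcggcggc
miR-6749-5p: uCGGGCCUgggguugggggagc
miR-6800-5p: gUAGGUGAcagucaggggcgg
miR-6785-5p: uGGGAGGGcguggaugauggug
miR-6803-5p: cUGGGGGUggggggcugggcgu
miR-6891-5p: uAAGGAGGgggaugagggg
miR-6790-5p: gUGAGUGUggauuuggcgggguu
miR-6857-5p: uUGGGGAUugggucaggccagu
miR-6774-5p: aCUUGGGCaggagggacccuguaug
miR-6889-5p: uCGGGGAGucugggguccggaau
miR-6769a-5p: aGGUGGGUauggaggagcccu
miR-6826-5p: uCAAUAGGaaagaggugggaccu
miR-6829-5p: uGGGCUGCugagaaggggca
miR-6763-5p: cUGGGGAGuggcuggggag

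These letters show what the members shared beyond their numbers. The median member was 50.0% G and 14.3% C, against 27.3% G and 21.7% C over the 1952 human miRNAs with a sequence outside these hairpins. A run of GGGG occurred in 47.3% of the members and in 10.1% of those other human miRNAs. The 3p arms of the same hairpins were the reverse, with a median of 14.3% G and 45.5% C, and 65.3% of the 150 with a sequence ended in CAG, the bases that commonly end an intron. Only 12 of the 146 members began with GU, the bases that begin most introns. The seeds were diverse, with 135 distinct ones over the 146 sequences, and 10 of them occurred in more than 1 member.

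The arrays differed in brightness before scaling. The 75th percentile over the 346 human miRNAs detected on all 8 arrays was 296 to 559 on the DMSO arrays and 534 to 729 on the UNC1999 arrays, so every array was divided by its own percentile before members were compared, and a fold change is read against the rest of that array's miRNAs. Within each group the arrays were alike in pairs, DMSO replicates 1 and 4, DMSO 2 and 3, UNC1999 1 and 3, and UNC1999 2 and 4, and it was not settled whether alike arrays held separate samples. Of the cell type markers, miR-142-3p, miR-142-5p and miR-150-5p of blood cells were detected on all 8 arrays and miR-155-5p on 2, while the epithelial, muscle and liver markers examined and miR-124-3p were detected on none. The neuronal marker miR-9-5p and the myeloid marker miR-223-3p were detected on all 8 arrays. MiR-142-3p fell by 0.52 (adjusted p = 0.0091), miR-142-5p by 0.36 (adjusted p = 0.014), miR-150-5p by 0.56 (adjusted p = 0.0010) and miR-9-5p by 0.88 (adjusted p = 0.0052), while miR-223-3p rose by 1.18 (SE 0.19) on the log2 scale (limma, adjusted p = 0.00057), and their part in the results below was not tested.

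Detection of the members differed between the groups. With DMSO the scanner software marked 48, 39, 38 and 49 of the 172 members as detected in replicates 1 to 4, and with UNC1999 57, 60, 57 and 59. Every UNC1999 array thus detected more members than every DMSO array. For the 3p arms of the same numbers the DMSO arrays gave 25, 13, 17 and 24 of 169 and the UNC1999 arrays 18, 17, 15 and 15, so that these groups overlapped. As a share, 25.3% ± 3.37 (SD, n = 4) of the members were detected with DMSO and 33.9% ± 0.872 (SD, n = 4) with UNC1999. Outside both arms the shares of human miRNAs were 16.4% ± 2.46 (SD, n = 4) and 18.9% ± 0.503 (SD, n = 4). The arrays lay in rows of the slide that were uneven between the groups. In row 1 the UNC1999 array of replicate 4 detected 59 members and the DMSO arrays of replicates 1, 2 and 4 detected 39 to 49, and in row 2 the DMSO array of replicate 3 detected 38 and the other UNC1999 arrays 57 to 60. DMSO replicates 2 and 3, which detected the fewest members, also had the lowest percentiles before scaling, and the part of array brightness in the detection counts was not tested.

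**Figure D1:**
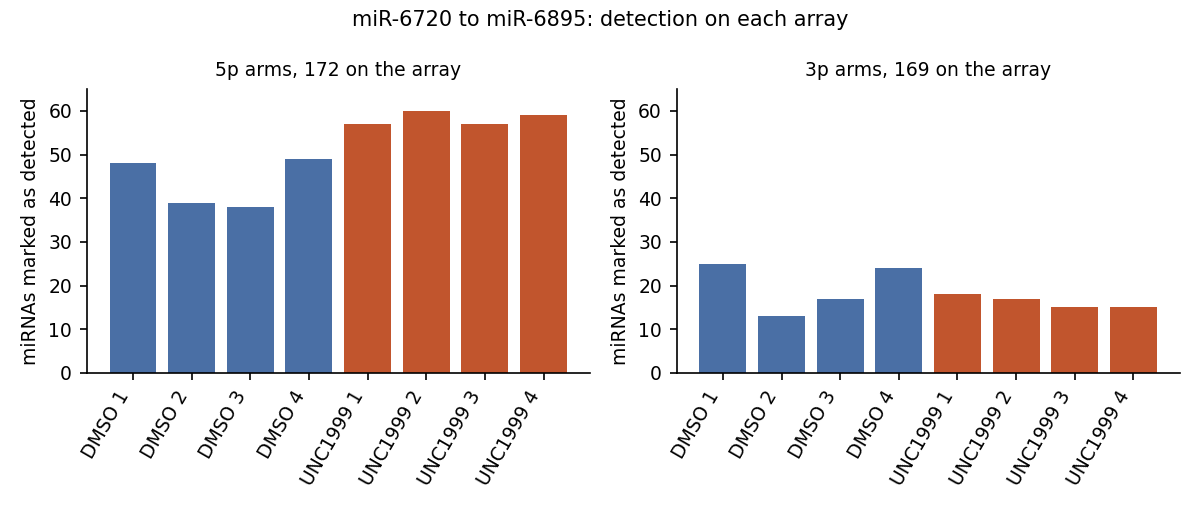
Number of miRNAs marked as detected by the scanner software on each array (bars, y axis from 0), for the 172 5p arms (left) and the 169 3p arms of the same numbers (right), DMSO in blue and UNC1999 in orange. The UNC1999 arrays detected 57 to 60 of the 5p arms and the DMSO arrays 38 to 49, while the 3p arms overlapped between the groups.

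By member, 38 were detected on all 8 arrays and 108 on none. Of the 64 detected on any array, 25 were detected on more UNC1999 than DMSO arrays and 0 on more DMSO than UNC1999 arrays, whereas of the 3p arms 4 were detected on more UNC1999 arrays and 14 on more DMSO arrays. Of the 477 human miRNAs outside both arms that any array detected, 129 were detected on more UNC1999 and 32 on more DMSO arrays. Of the 25 members, 5, namely miR-6769a-5p, miR-6790-5p, miR-6889-5p, miR-6846-5p and miR-6774-5p, had detection on all 4 UNC1999 arrays and 0 DMSO arrays (20 of all human miRNAs did), and 12 on all UNC1999 and 1 to 3 DMSO arrays. In 6 of these 12 the DMSO arrays were replicates 1 and 4, in 2 replicate 1 alone, in 3 replicate 4 alone and in 1 replicates 1, 2 and 4, so that each of the 12 was detected on an array of the alike pair 1 and 4. Members detected on all 8 arrays had a median G share of 55.3% and a GGGG run in 73.3% of 30 sequences, and those detected on none had 45.5% and 37.6% of 93 sequences.

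To ask which members changed with UNC1999, a test was run over the 456 human miRNAs that all 4 arrays of 1 group or of both had detected. They included 55 members, namely the 38, the 5 and the 12 above, and the other 9 detected members and the 108 undetected ones were not tested. Of the 55 tested members, 34 were called higher with UNC1999 and 3 lower, where a call needed an adjusted p no higher than 0.05 together with a 1.2-fold change. Over all 456 tested miRNAs 36.0% were called higher and 34.6% lower. Of the 55 members, 17 passed the filter through the UNC1999 arrays alone, so that their counts are no support for a rise. Among the 38 detected on all 8 arrays 20 were called higher and 3 lower, with a median log2 fold change of 0.34, and among the other 17 these were 14 and 0, with a median of 0.68. With only the miRNAs detected on all 8 arrays fitted, 21 of the 38 members were called higher and 3 lower, where the shares over the 346 miRNAs fitted were 31.5% and 40.2%. The log2 fold changes had medians of 0.43 over the 55 members and 0.011 over all tested miRNAs. Leaving out 1 array gave 26 (without DMSO replicate 2, 4 lower) to 37 (without DMSO replicate 1, 4 lower) members called higher, with 29.6% and 37.9% of all tested miRNAs higher and 34.6% and 33.6% lower. With the alike pairs of arrays averaged, which leaves 2 against 2, the counts fell to 13 higher and 1 lower, against 15.4% and 18.9% of all tested miRNAs.

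**Figure D2:**
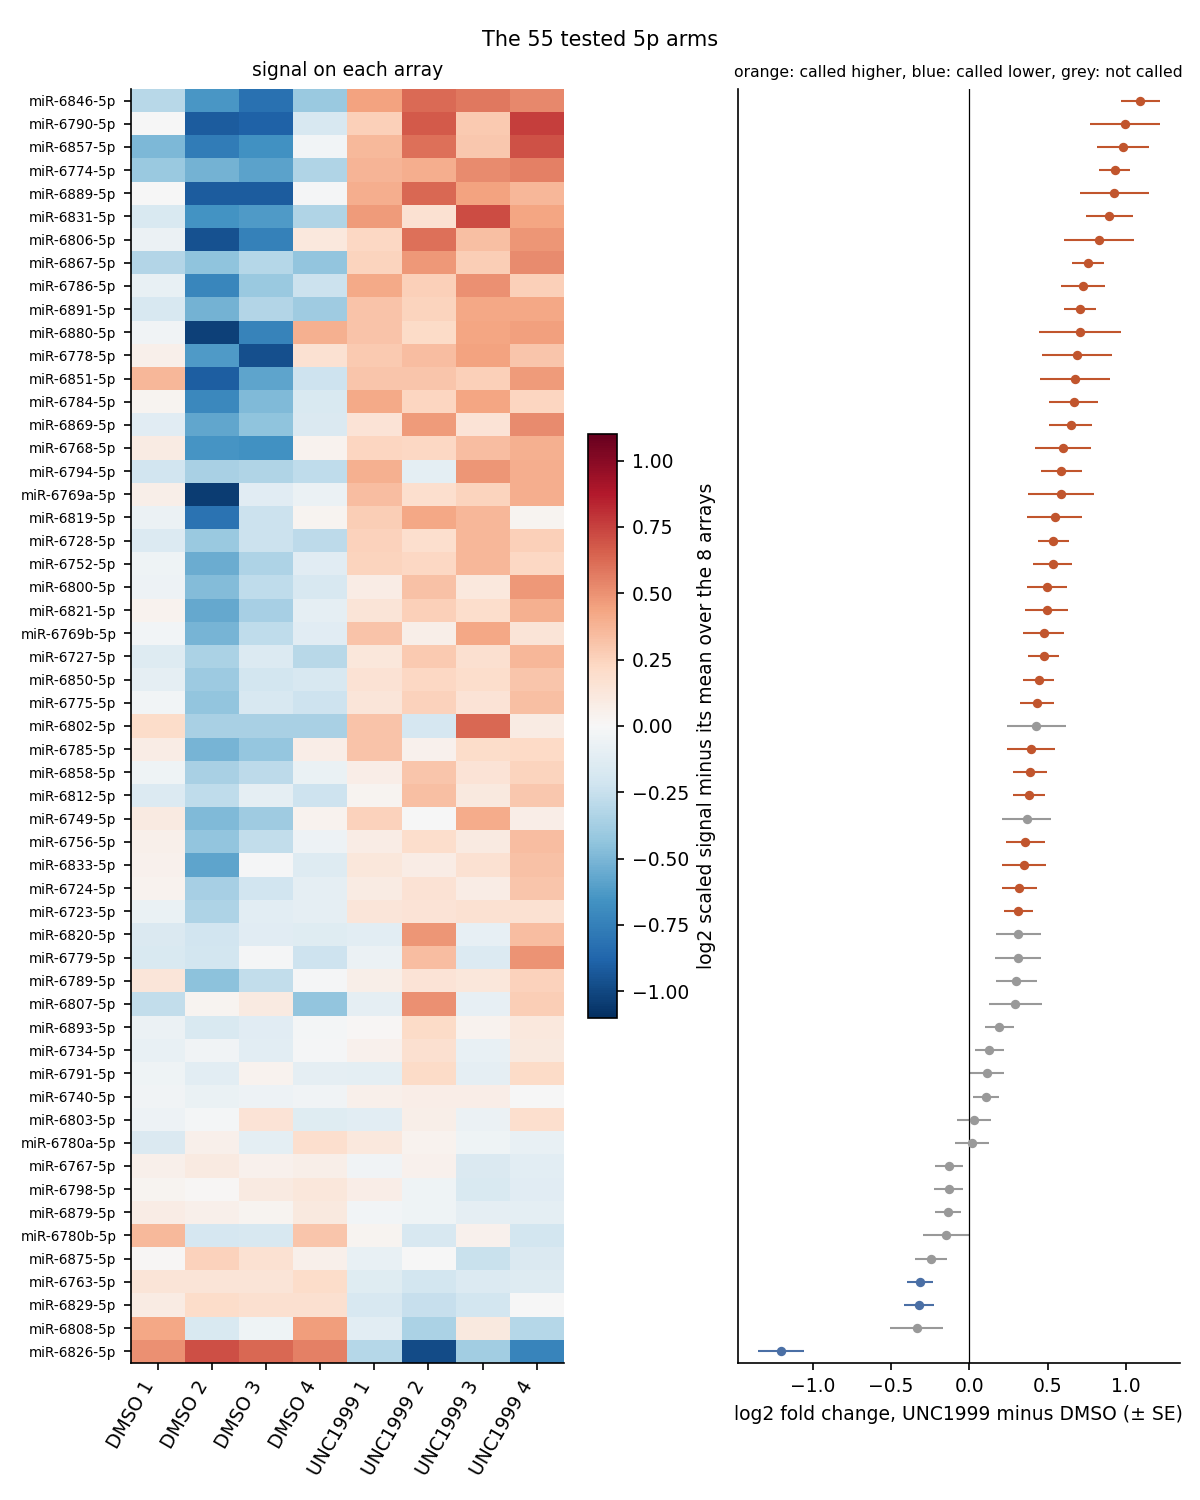
Left, log2 scaled signal of the 55 tested 5p arms on each of the 8 arrays, as the difference from the mean of that miRNA over the arrays (colour scale, log2). Right, the log2 fold change of each, UNC1999 minus DMSO, with its SE from limma (bars), in orange where called higher (34), blue where called lower (3) and grey where not called (18).

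In 33 tested members all UNC1999 arrays lay above all DMSO arrays and in 5 they all lay below, where 32.7% of all tested miRNAs did the first and 32.7% the second. The values called higher ran from 0.31 to 1.09 on the log2 scale with a median of 0.59, and in 30 of these 34 the groups did not overlap. These 34 had been called on the same arrays, so the missing overlap is no further support for a rise. The 18 members not called ran from -0.34 to 0.43. A second probe was present for every tested member, and all probes of a member moved the same way in 46 of 55 members and in 34 of the 37 called ones. In 5 members a probe stayed at the floor in both groups. Within the slide, 3 members were called higher and 1 lower in row 1 (3.95% and 9.43% of all tested miRNAs; member median log2 fold change 0.50). In row 2 these counts were 22 and 1 (27.0% and 23.7%; median 0.40), and with the row as a block they were 30 and 2 (32.0% and 30.5%). Each row held a single array of one of the groups, whose spread was taken to be that of the other arrays.

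The 10 brightest members detected on all arrays were miR-6869-5p, miR-6749-5p, miR-6800-5p, miR-6821-5p, miR-6785-5p, miR-6803-5p, miR-6875-5p, miR-6891-5p, miR-6826-5p and miR-6893-5p. Brightness depends on the probe as well as on the amount of RNA, and no ranking of abundance follows from it. The role of these miRNAs in plasma cells is not part of the data, and host genes are named where RefSeq gave them. MiR-6869-5p, from within FKBP1A, the gene of an immunophilin that binds rapamycin, had log2 scaled signals of 12.39, 11.95, 12.08 and 12.36 on the DMSO arrays and 12.67, 12.99, 12.67 and 13.03 on the UNC1999 arrays. All UNC1999 arrays were higher than all DMSO arrays. It rose by 0.65 (SE 0.14) on the log2 scale (limma, adjusted p = 0.0026).

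MiR-6800-5p, within the gene of the Mediator subunit MED25, had 10.77, 10.35, 10.54 and 10.65 on the DMSO arrays and 10.90, 11.15, 10.94 and 11.30 on the UNC1999 arrays, again without overlap. It rose by 0.49 (SE 0.13; adjusted p = 0.0066). MiR-6821-5p rose by the like amount of 0.49 (SE 0.14; adjusted p = 0.0095), with DMSO arrays between 10.12 and 10.72 and UNC1999 arrays between 10.82 and 11.07. MiR-6891-5p, within the HLA class I gene HLA-B, had 8.92, 8.57, 8.77 and 8.70 on the DMSO arrays and 9.40, 9.34, 9.51 and 9.52 on the UNC1999 arrays. It rose by 0.70 (SE 0.10; adjusted p = 0.00041), and the gap between the groups exceeded the range within each.

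The other bright members moved less or not beyond the test. MiR-6785-5p, within TMEM94, rose by 0.39 (SE 0.15; adjusted p = 0.039), but its DMSO array of replicate 1 at 10.01 lay above the UNC1999 array of replicate 2 at 9.98, and it was not called without DMSO replicate 2 or 3 or UNC1999 replicate 1, 3 or 4 (adjusted p = 0.070 to 0.0996). MiR-6749-5p, within the autophagy gene ATG2A, had a difference of 0.36 (SE 0.16; adjusted p = 0.057) with overlapping groups, and it was called without DMSO replicate 1 (0.46, adjusted p = 0.023) or without DMSO replicate 4 (0.44, adjusted p = 0.035). MiR-6803-5p, within the phosphatase subunit gene PPP6R1, differed by 0.031 (SE 0.11; adjusted p = 0.80). MiR-6893-5p differed by 0.19 (SE 0.092; adjusted p = 0.088), although all UNC1999 arrays lay above the DMSO arrays. MiR-6875-5p differed by -0.25 (SE 0.10; adjusted p = 0.047), which is under the 1.2-fold threshold in the main fit and over it without DMSO replicate 1 or without UNC1999 replicate 2 (-0.28 and -0.29).

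The 5 largest rises were all in dim members, close to the lowest signal that the software marks as detected. These members, and miR-6769a-5p below, had passed the filter through the UNC1999 arrays alone, so no p-value is given for them. MiR-6846-5p had log2 scaled signals of 3.71, 3.38, 3.19 and 3.61 on the DMSO arrays, none of them detected, and 4.46, 4.64, 4.59 and 4.54 on the UNC1999 arrays, all detected. The groups did not overlap, and the fitted difference was 1.09 (SE 0.12). For a member detected in 1 group only, a bound was taken within the software's background correction. It sets the UNC1999 mean against the DMSO arrays. Each DMSO array is taken at its lowest detected signal, or at the member's own signal where that was higher. Several other corrections, given below, put these members lower with UNC1999, so the bound does not hold across corrections. Under the software's correction miR-6846-5p was at least 1.48-fold higher with UNC1999.

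MiR-6790-5p, within GTF2F1, a gene of the general transcription factor TFIIF, had 4.18, 3.26, 3.29 and 4.01 on the DMSO arrays and 4.44, 4.86, 4.46 and 4.94 on the UNC1999 arrays. Its DMSO arrays fell into 2 levels along the alike pairs, and all lay below the UNC1999 arrays (at least 1.38-fold, fitted difference 0.99, SE 0.22). MiR-6774-5p, within IRF8, the gene of a transcription factor of B cell and myeloid development, had 3.51, 3.39, 3.32 and 3.58 on the DMSO arrays and 4.29, 4.31, 4.43 and 4.47 on the UNC1999 arrays. It was at least 1.35-fold higher (fitted difference 0.93, SE 0.099), and 1 of its 2 probes stayed at the floor in both groups.

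MiR-6889-5p, within RANGAP1, a gene of nuclear transport, had 4.08, 3.17, 3.17 and 4.07 on the DMSO arrays, where 3.17 is the floor, and 4.49, 4.71, 4.53 and 4.45 on the UNC1999 arrays. It was at least 1.26-fold higher (fitted difference 0.92, SE 0.22). MiR-6769a-5p, within the ubiquitin ligase gene MGRN1, had 4.28, 3.17, 4.08 and 4.14 on the DMSO arrays and 4.55, 4.40, 4.45 and 4.61 on the UNC1999 arrays. It was at least 1.17-fold higher (fitted difference 0.58, SE 0.21). Its call in the main fit was lost when array row was a block and without UNC1999 replicate 1 or 4. MiR-6857-5p, within the cohesin gene SMC1A, was detected on 2 DMSO and 4 UNC1999 arrays and had 4.20, 3.93, 4.02 and 4.66 against 5.05, 5.30, 4.99 and 5.39. It rose by 0.98 (SE 0.17), without overlap, and a single probe carried the rise, with 0.87 against 0.076 for the other.

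The 3 members that fell were all detected on all 8 arrays. MiR-6826-5p, within COPG1, a gene of the vesicle coat COPI, had 9.53, 9.74, 9.66 and 9.59 on the DMSO arrays and 8.72, 8.05, 8.65 and 8.30 on the UNC1999 arrays. Its log2 fold change was -1.20 (SE 0.15; limma, adjusted p = 0.00018), the largest change of either direction among the 55, and its 2 probes gave -1.21 and -1.19. With 34.8% G its sequence was among the 3 tested members with the least G. Without scaling its difference was -0.50 and not called (adjusted p = 0.13).

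MiR-6829-5p, within the kinase gene TNK2, had 6.69, 6.81, 6.78 and 6.78 on the DMSO arrays and 6.43, 6.35, 6.40 and 6.60 on the UNC1999 arrays, and fell by 0.32 (SE 0.094; adjusted p = 0.012). MiR-6763-5p, within FBRSL1, had 7.62 on DMSO arrays 1, 2 and 3 and 7.67 on the fourth, and 7.34, 7.27, 7.33 and 7.33 on the UNC1999 arrays, and fell by 0.31 (SE 0.084; adjusted p = 0.0075). Both falls depend on the scaling, since the 2 members stood at 0.38 and 0.38 above the DMSO arrays without scaling, when the median of all tested miRNAs was 0.67. MiR-6829-5p also lost its call when array row was a block (-0.28, adjusted p = 0.062), and without scaling 0 members were called lower (0.877% of all tested miRNAs) and 46 higher (51.3%).

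Among tested members with a sequence, a seed was shared by miR-6779-5p with miR-6780a-5p and by miR-6812-5p with miR-6819-5p, which are printed with the seed in capitals.
miR-6779-5p: cUGGGAGGggcuggguuuggc
miR-6780a-5p: uUGGGAGGgaagacagcuggaga
miR-6812-5p: aUGGGGUGagauggggaggagcagc
miR-6819-5p: uUGGGGUGgagggccaaggagc
MiR-6779-5p differed by 0.31 (SE 0.15; adjusted p = 0.084) and miR-6780a-5p by 0.017 (SE 0.11). The latter lies within EZH1, the paralogue of EZH2. MiR-6812-5p rose by 0.38 (SE 0.10; adjusted p = 0.0088) and miR-6819-5p differed by 0.54 (SE 0.18). MiR-6780a-5p and miR-6819-5p had passed the filter through the UNC1999 arrays alone and are given without a test.

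The direction of the dim members changed with the background correction. In the setting above, the scanner software had subtracted a fitted background from each spot, after which the median negative control spot was at 1.23 to 2.80. With normexp correction on the raw intensity and an offset of 50, an alternative that damps dim signals, 7 members were called higher and 12 lower, against 11.8% and 50.4% of all tested miRNAs. Of the 34 members called higher before, 16 stayed above 0 and 6 were called higher, while 5 were called lower. The 3 members called lower were called lower again. With normexp fitted to the negative control spots and no offset, 30 of the 34 were called higher and all 34 lay above 0, with 32.2% of all tested miRNAs called higher and 36.0% lower. Raw intensity gave 7 members higher and 18 lower (12.1% and 58.1% of all tested miRNAs), normexp with an offset of 16 likewise 7 and 18 (12.7% and 57.0%), plain subtraction of the local background 12 and 12 (15.8% and 50.4%), and the negative control fit with an offset of 16 gave 15 and 9 (18.9% and 47.4%).

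**Figure D3:**
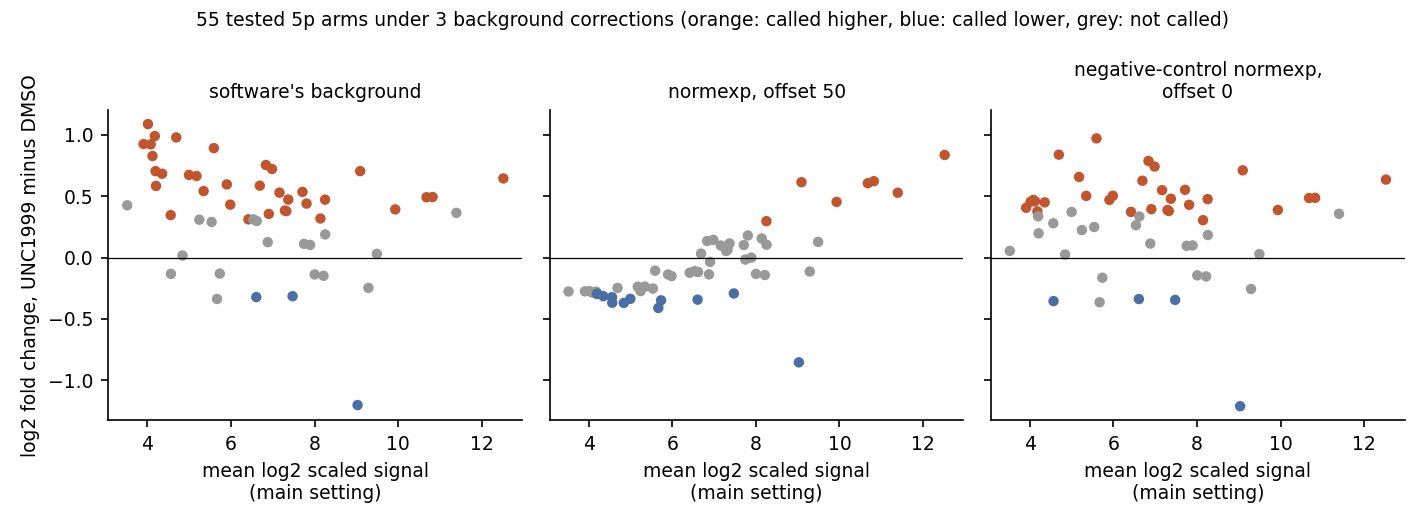
Log2 fold change, UNC1999 minus DMSO, of the 55 tested 5p arms (points) against their mean log2 scaled signal under 3 background corrections, coloured by the call (orange higher, blue lower, grey not called). With normexp and an offset of 50 each of the 27 dimmer members lies below 0 and 19 of the 28 brighter ones above it, while the other corrections place most dim members above 0. Nearly all other tested miRNAs of like dim signal (not drawn) also lie below 0 with that offset.

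The split ran along signal. Of the 28 brighter tested members, 23 lay above 0 with the software's background (median 0.38), 19 with normexp at an offset of 50 (median 0.10) and 23 with the negative control fit without offset (median 0.39). Of the 27 dimmer ones the counts were 23 (median 0.54), 0 (median -0.28) and 23 (median 0.37). Several of the brightest members kept their direction. MiR-6869-5p was at 0.84 with normexp at an offset of 50, miR-6800-5p at 0.62, miR-6821-5p at 0.61 and miR-6891-5p at 0.61, all called, and miR-6826-5p was called at -0.85. The largest moves were those of miR-6846-5p from 1.09 to -0.27, miR-6790-5p from 0.99 to -0.28 and miR-6857-5p from 0.98 to -0.25.

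Spots with no target were also lower with UNC1999 in these settings. After the scaling of each array, the median negative control spot changed by -0.49 on the log2 scale from DMSO to UNC1999 with normexp at an offset of 50, and by -0.58 with raw intensities. The percentile by which arrays were divided was higher with UNC1999 by 0.47 and 0.52 on the log2 scale in these settings. Before scaling the median negative control spot was 55.4 ± 0.878 with DMSO and 52.9 ± 0.854 with UNC1999 (SD, n = 4 each). The dim members were read against that level without any correction or scaling. MiR-6846-5p had raw spot intensities of 60.9, 57.0, 58.2 and 59.8 on the DMSO arrays and 64.8, 69.4, 66.6 and 61.4 on the UNC1999 arrays, all above every DMSO array. MiR-6774-5p had 60.4, 56.7, 58.2 and 61.0 against 64.1, 67.1, 65.6 and 62.0, also without overlap. Both had been chosen for their rise on these arrays, so no test is given. The raw means of miR-6790-5p were 60.5 ± 3.67 and 66.7 ± 3.71 (SD, n = 4), of miR-6889-5p 59.2 ± 4.02 and 65.9 ± 4.55 and of miR-6769a-5p 60.8 ± 4.30 and 65.2 ± 2.09, and in these 3 the groups overlapped on the raw scale. Raw intensities carry the brightness of the whole array, and over the 27 dimmer members their median exceeded the negative control spots by 5.15 to 15.8 on the DMSO arrays and by 17.5 to 25.8 on the UNC1999 arrays. These 27 include the 17 members that passed the filter through the UNC1999 arrays alone, so the larger excess is no support for a rise.

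**Figure D4:**
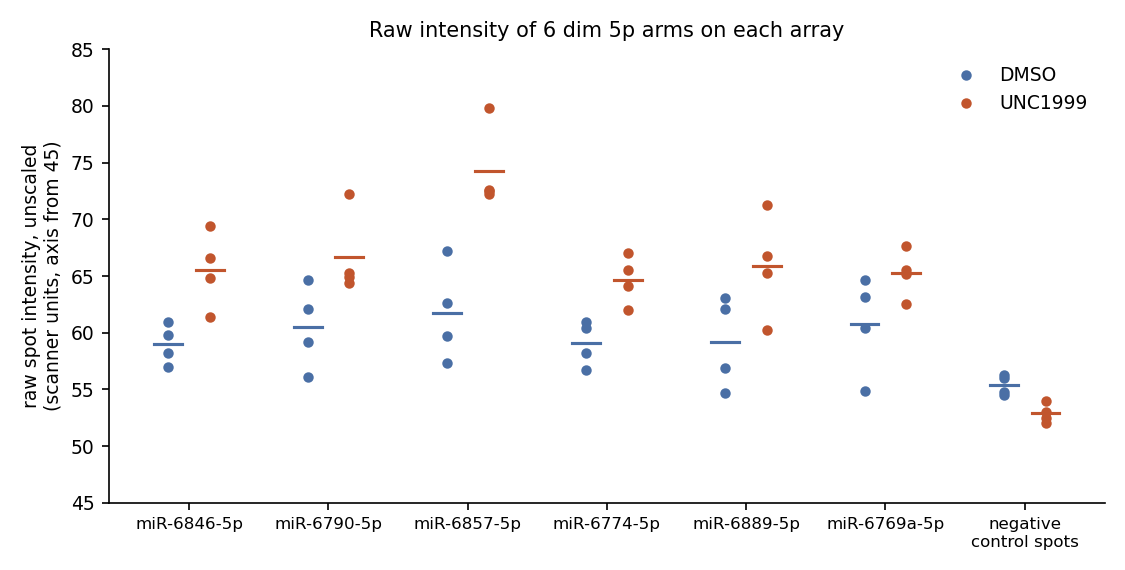
Raw spot intensity, neither background-corrected nor scaled (scanner units, axis from 45), of 6 dim 5p arms and of the median negative control spot on each array, DMSO in blue and UNC1999 in orange, with the mean of each group as a line. The UNC1999 means of the 5p arms lie above the DMSO means, and the negative control spots of UNC1999 lie at 52.0 to 54.0, not above those of DMSO at 54.5 to 56.2. These 6 5p arms had passed the detection filter through the UNC1999 arrays alone.

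In the 5 hairpins with both arms tested, the arms could be set against each other within an array, where the scaling cancels. Their 3p arms are shown with the last 3 bases in capitals, the position of CAG in most introns.
miR-6752-3p: ucccugcccccauacuccCAG
miR-6763-3p: cuccccggccucugccccCAG
miR-6800-3p: caccucuccuggcaucgcCCC
miR-6819-3p: aagccucuguccccacccCAG
miR-6889-3p: ucugugccccuacuuccCAG
The log2 ratio of the 5p to the 3p arm of miR-6800 was 5.36, 4.82, 4.69 and 5.45 on the DMSO arrays and 5.97, 6.28, 6.25 and 6.20 on the UNC1999 arrays. It rose by 1.09 (exact permutation test, two-sided, p = 0.029, the smallest that 4 against 4 arrays can give; 0.036 adjusted over the 5 hairpins), and by 1.09 also with normexp at an offset of 50. For miR-6752 the ratio rose by 1.08 (exact p = 0.029, adjusted 0.036), and with normexp by 0.50. The 3p arms of both were dim, with mean log2 signals of 5.20 for miR-6800-3p and 4.68 for miR-6752-3p. The ratio cancels the scaling, but not background left in a dim arm. With normexp at an offset of 50, the 11 dimmest tested 3p arms, both included, had a median log2 fold change of -0.43. After scaling, the median negative control spot changed by -0.49 in that setting. The part of background in these ratio changes was not tested. In the other hairpins an arm had passed the filter through the group where it was high, and the values are given without a test. The ratio differed by 1.07 for miR-6819 (0.19 with normexp) and by 0.47 for miR-6763 (0.14 with normexp). For miR-6889 the 5p arm was not detected on any DMSO array and was at the floor on 2 of them, so that no size is given.

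**Figure D5:**
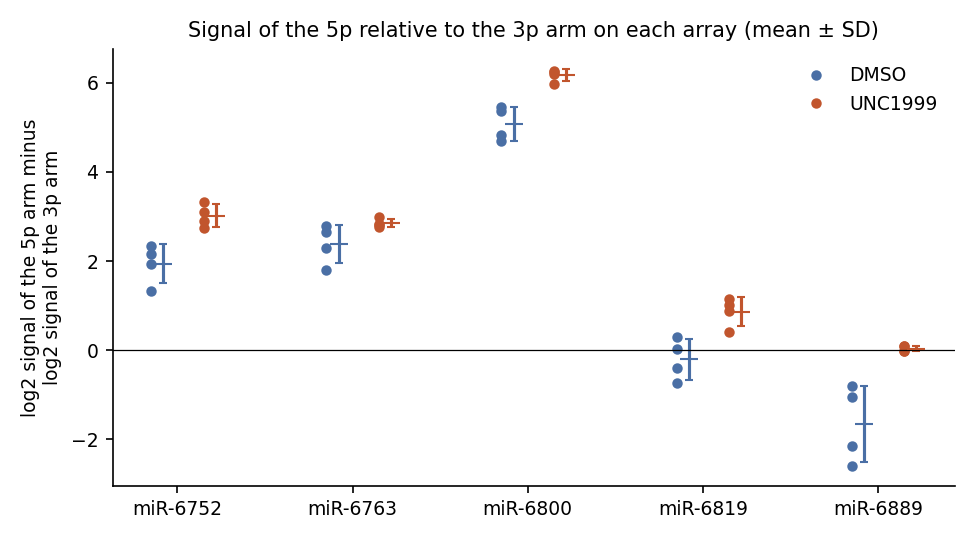
Log2 scaled signal of the 5p arm minus that of the 3p arm of the same hairpin on each array (points), DMSO in blue and UNC1999 in orange, with mean ± SD of each group (n = 4). In miR-6752, miR-6800, miR-6819 and miR-6889 all UNC1999 arrays lie above all DMSO arrays, and in miR-6763 the groups overlap. The 5p arm of miR-6889 was not detected on the DMSO arrays.

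The 3p arms of the same numbers were mostly lower in the main fit. Of 15 tested 3p arms 1 was called higher and 13 lower, with a median of -0.58, where 36.0% and 34.6% of all tested miRNAs were called. All 15 were dim, with mean log2 signals of 4.60 to 6.16, and 0 of them were among the brighter tested miRNAs. A floor at 4 times the main one left 1 higher and 2 lower (24.8% and 25.9% of all tested miRNAs). The authors' values with the same filter gave 1 and 5 (32.0% and 25.7%). Of the 15, 4 passed the filter through the DMSO arrays alone, and with only miRNAs detected on all 8 arrays fitted, 1 was called higher and 6 lower of 8. With normexp at an offset of 50 the counts were 0 and 14 of 15, where 50.4% of all tested miRNAs were called lower. Without scaling 1 was called higher and 0 lower, with a median of 0.11, when all tested miRNAs had a median of 0.67. The brightest tested 3p arms were miR-6840-3p, which fell by 0.41 (SE 0.12; adjusted p = 0.014), miR-6722-3p, which rose by 0.78 (SE 0.14; adjusted p = 0.0011), and miR-6797-3p, which fell by 0.49 (SE 0.14; adjusted p = 0.012). Of the 14 tested 3p arms with a sequence, 2 held a run of GGGG, miR-6722-3p, which rose, and miR-6840-3p, which fell. The sequence of miR-6722-3p, the single 3p arm that rose, is shown with its last 3 bases in capitals.
miR-6722-3p: ugcaggggucgggugggccAGG
Among 9 tested arms of mirtrons with lower numbers 4 were called higher and 2 lower, where 36.0% and 34.6% of all tested miRNAs were. With normexp at an offset of 50 these counts were 2 and 6, where 11.8% and 50.4% of all tested miRNAs were called. Their 3 brightest, miR-1225-5p (0.66, SE 0.15, adjusted p = 0.0033), miR-1229-5p (0.73, SE 0.11, adjusted p = 0.00053) and miR-1227-5p (0.53, SE 0.16, adjusted p = 0.012), all rose, and all are 5p arms.

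The counts also changed with choices made after the background. With the 75th percentile taken over all human miRNAs 42 members were called higher and 1 lower (42.1% and 19.3% of all tested miRNAs), and a floor at 4 times the main one left 22 higher (24.8%). With no filter on detection 11 of 172 members were called higher (2.79%), and among the brighter tested miRNAs 18 of 28 (39.9%). The authors' values over every feature gave 27 higher (5.78%) and 1 lower (4.31%). These shares are over 2042 features, most of which did not pass the detection filter, while the 55 members among them all did. With the same filter the authors' values gave 33 higher and 2 lower, against 32.0% and 25.7% of all tested miRNAs. The methods' paired t-test, adjusted, gave 11 higher (14.3%) and 3 lower (19.1%). The paired test stands in the study's general statistics, and for these arrays its methods name a moderated test.

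The G share of the sequence moved with the fold change over miRNAs outside the members. Across the 335 tested human miRNAs with a sequence outside both arms Spearman's rho between the G share and the log2 fold change was 0.59, and across the 46 tested members it was -0.080, a description over probes of the same 8 arrays. The tested members called higher had a median G share of 53.5% (28 sequences) and the others 50.0% (18 sequences), against 36.8% over the 335. The part of base composition in the comparison of the members with all miRNAs was not tested.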

How the data were processed

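Total RNA of INA-6 cells was labelled with Cy3 and hybridised to Agilent miRNA arrays. The authors deposited the scanner output of Agilent Feature Extraction (version 10.7.3.1 in the submitters' processing notes), with raw and background-subtracted intensity of each spot and detection marks per miRNA, not normalized between arrays. A second deposited table, of log2 values processed by the authors for 2042 features, served as an alternative.

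From the background-subtracted intensity, spots marked as outliers were left out, the spots of a probe averaged, the probes of a miRNA summed, and the sums scaled so that the 75th percentile of the 346 miRNAs which all 8 arrays detected was equal between arrays. A floor of 8.98, the median of the arrays' lowest detected signals, replaced lower values before the log2 step. The 456 miRNAs detected on all 4 arrays of a group went into 1 limma fit (version 3.58.1, R 4.3.3; lmFit, then eBayes). A call required an adjusted p (Benjamini-Hochberg) no higher than 0.05 together with a 1.2-fold change. All adjusted p-values are from this fit over all tested miRNAs unless named otherwise. On simulated data for this comparison with 456 miRNAs, of which 200 were changed, 84.0% of changes of 0.5 and 99.1% of changes of 1 on the log2 scale were called, and 3.16% of calls were false. The simulated noise was independent between arrays, whereas the real arrays were alike in pairs, so these rates need not hold for the data. The number of arrays limits the precision.

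The range of numbers that defines the members, the lists and the tests were chosen with earlier results of these data known, and within the range every 5p arm was taken by its name. Named members are the 10 brightest detected on all arrays, the 5 largest rises and falls called (3 fell), the 5 brightest detected on all arrays of 1 group and none of the other, and the 3 whose fold change moved most with normexp at an offset of 50. MiR-6779-5p, miR-6780a-5p, miR-6812-5p and miR-6819-5p were added for their shared seeds after their values were seen. Normexp on the negative control spots and the use of the alike pairs of arrays were added after seeing the data. Sequences and host genes are from RefSeq (GRCh38.p14), and coordinates are not given because the scanner files name another build.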

Additional observations from a re-analysis of the deposited data

Results flagged for a closer look

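In the DMSO group, miR-6763-5p stood at 7.62 on 3 arrays and at 7.67 on replicate 4, and the gap of that array to its neighbour was 0.985 of the group's whole range, above Dixon's critical value for 4 values. The range itself was small, and 1 of 36 groups examined had such a gap where chance gives 1.8.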

How the results depend on the processing

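Of 55 tested members 34 were called higher and 3 lower, with a median log2 fold change of 0.43. Background: normexp with an offset of 50 gave 7 higher, 12 lower and a median of -0.13; with an offset of 16, 7, 18 and -0.092; raw intensity 7, 18 and -0.14; plain subtraction of the local background 12, 12 and -0.00089; and normexp on the negative controls with an offset of 16, 15, 9 and 0.050. The medians over all tested miRNAs moved too, to -0.29, -0.33, -0.33, -0.30 and -0.27 in this order, and the member median was above them in each setting. The 55 members include 17 that passed the filter through the UNC1999 arrays alone, so these medians are no support for a rise. In the same order, miR-6769a-5p went to -0.29, -0.36, -0.37, -0.32 and -0.31, miR-6774-5p to -0.27, -0.33, -0.33, -0.28 and -0.26, miR-6790-5p to -0.28, -0.31, -0.33, -0.24 and -0.25, miR-6846-5p to -0.27, -0.32, -0.33, -0.24 and -0.24, and miR-6889-5p to -0.28, -0.32, -0.33, -0.24 and -0.22. MiR-6857-5p went to -0.25, -0.21, -0.25 and -0.095 under the first 4 of these.

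Scaling: the 75th percentile over all human miRNAs gave 1 lower and a median of 0.61, with 0.23 for all tested miRNAs, and no scaling gave 0 lower and 1.08, with miR-6763-5p at 0.38 and miR-6829-5p at 0.38. A floor at 4 times the main one gave 22 higher and a median of 0.23. Filters: none on detection gave 11 higher of 172 and a median of 0, detection on all 8 arrays 21 higher of 38, and the brighter miRNAs 18 higher of 28, with fewer members tested in the last 2. The authors' values over every feature gave 1 lower, and the methods' paired t-test, adjusted, 11 higher. Within array row 1 the counts were 3 and 1 and within row 2 they were 22 and 1, and the alike pairs averaged, 2 against 2, gave 13 and 1, each with fewer arrays. Leaving out each array in turn gave 26 to 37 higher, 3 to 4 lower and a median of 0.35 to 0.48. Replicate numbers did not pair the samples (correlations of deviations 0.18, 0.27, -0.42 and -0.39), and with the number as a replicate block 34 were higher and 3 lower. The other settings kept the counts within 1.5 times. The cause of these moves was not tested beyond the negative control values given above. Signal close to background limits the dim members most.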
